A study of Mus musculus with 7 samples.

Results

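The genes described here encode subunits of the transcription factor NF-kappaB (Rel, Rela, Relb, Nfkb2), IkB proteins that bind them (Nfkbia, Nfkbie, Nfkbid, Nfkbiz) and the ubiquitin-editing enzyme A20 (Tnfaip3). They were chosen by name from a list of 10 genes, of which 9 had at least 1 probe set with exactly 1 gene symbol and 1 is not analysed here. The 9 genes stand among 18193 genes so named, and they were measured by 18 probe sets. For each gene the probe set of highest mean over all arrays gave the main value. All 9 reached the intensity filter of 82.0 in every array, so none was left out of the tests.

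The samples were thymic T cells from C57BL/6J mice aged 4 to 6 weeks, each sample pooled from several mice and hybridised to 1 of 7 single-colour expression arrays. Luxoid NKT (n = 3) were stage 1 natural killer T cells of mice with the Luxoid mutation, which leaves them without PLZF (a transcription factor encoded by Zbtb16), and with a transgene for the Valpha14 T cell receptor chain. Stage 1 NKT (n = 2) were the same sorted stage from mice with the transgene and without the mutation. CD4SP (n = 2) were CD4+ CD8- thymocytes of wild-type mice, which carried neither. NKT cells recognise lipids bound to CD1d, and stage 1 was sorted as cells that bound a CD1d tetramer, had low CD24 and lacked CD44 and NK1.1. The labels name neither the promoter of the transgene nor the number of mice per pool. In both comparisons with CD4SP the transgene and the cell type differ together. In that of Luxoid NKT the mutation differs as well. Within each comparison these cannot be told apart. For CD4SP, 1 label field repeats the sort of the NKT cells and goes against the sample titles, which were followed.

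NF-kappaB subunits act as dimers. In resting cells classical IkB proteins such as IkB-alpha (Nfkbia) and IkB-epsilon (Nfkbie) hold these dimers in the cytoplasm, and signals from the T cell receptor, costimulatory receptors and TNF family receptors lead to the destruction of IkB and entry of the dimers into the nucleus. A separate route, driven by the kinase NIK, processes p100 (Nfkb2) to p52, which pairs with RelB. Nuclear IkB proteins (IkB-NS from Nfkbid, IkB-zeta from Nfkbiz) act on NF-kappaB at its target genes. Nfkbia and Tnfaip3 are themselves well known targets of NF-kappaB, and their products shut the response off. In the thymus, NF-kappaB is known to be needed for NKT cell development and survival, and c-Rel (Rel) for the development of regulatory T cells.

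Promoter sequence was set beside the expression values because several of these genes are known targets of the factor they encode or restrain. RefSeq windows on GRCm38.p6, reaching from 250 bases before to 50 bases after a gene's start, were at hand for 7 of the members, with 12 windows in all, since some genes have several starts. The kappaB consensus, searched on both strands, was found in 8 of the 12 windows and in at least 1 window of 6 of the 7 genes. It was found in 8.46% of all 32851 windows of that length, and 9.55% of 27025 genes held it in at least 1 window. Windows matched for base composition were not compared. A match is a description of letters and not a measured binding site. The 250 bases before the start are shown for the 4 genes that passed a test below and for Rela, the member that differed least from CD4SP in both NKT groups. Each is written 5′ to 3′ on the gene's own strand, and capitals mark the bases of a match to the kappaB consensus. Their positions are chr11:23770970-23771219 on the minus strand for Rel, chr10:19015411-19015660 on the minus strand for Tnfaip3, chr17:45555450-45555699 on the plus strand for Nfkbie, chr12:55492648-55492897 on the minus strand for Nfkbia and chr19:5637291-5637540 on the plus strand for Rela.
Rel: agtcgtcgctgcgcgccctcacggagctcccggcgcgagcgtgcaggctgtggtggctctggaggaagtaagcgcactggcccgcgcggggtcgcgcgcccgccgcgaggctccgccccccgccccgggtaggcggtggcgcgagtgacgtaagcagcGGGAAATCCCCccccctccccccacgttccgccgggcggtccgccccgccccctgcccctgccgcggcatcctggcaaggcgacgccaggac
Tnfaip3: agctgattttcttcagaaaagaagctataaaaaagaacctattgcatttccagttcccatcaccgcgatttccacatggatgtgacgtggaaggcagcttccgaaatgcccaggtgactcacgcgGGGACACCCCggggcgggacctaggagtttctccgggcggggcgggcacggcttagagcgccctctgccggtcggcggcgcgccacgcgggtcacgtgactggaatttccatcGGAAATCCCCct
Nfkbie: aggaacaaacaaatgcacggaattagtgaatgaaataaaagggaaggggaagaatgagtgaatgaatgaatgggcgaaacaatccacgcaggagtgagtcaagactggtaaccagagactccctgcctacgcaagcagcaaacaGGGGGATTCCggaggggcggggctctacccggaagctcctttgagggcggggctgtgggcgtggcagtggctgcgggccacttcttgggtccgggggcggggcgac
Nfkbia: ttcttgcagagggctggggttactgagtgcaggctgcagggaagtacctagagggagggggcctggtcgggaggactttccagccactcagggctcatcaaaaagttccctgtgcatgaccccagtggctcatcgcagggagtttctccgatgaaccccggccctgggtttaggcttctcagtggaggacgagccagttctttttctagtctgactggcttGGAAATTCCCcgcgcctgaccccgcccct
Rela: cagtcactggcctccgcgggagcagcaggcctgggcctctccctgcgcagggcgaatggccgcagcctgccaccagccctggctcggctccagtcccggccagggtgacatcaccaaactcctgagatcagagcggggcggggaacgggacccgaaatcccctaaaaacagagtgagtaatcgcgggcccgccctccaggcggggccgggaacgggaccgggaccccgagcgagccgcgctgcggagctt
In the Rel window the capitals hold 2 matches that overlap, 1 on each strand. Tnfaip3 held 2 separate matches, with first bases 125 and 12 bases before the start. The match of Nfkbia began 29 bases before the start and that of Nfkbie 106 bases before it. Rela held none in its whole window, nor did the second window of Tnfaip3. Of the members not shown, Nfkb2 held a match in each of its 3 windows and Nfkbid in 1 of 3. Windows 2 and 3 of Nfkb2 overlap, and the match of window 3 is a site that window 2 also holds, so that site counts in 2 of the 8 windows with a match.

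The labelled cell types were checked first. The NKT gene Zbtb16 read 1857, 2774 and 2645 in Luxoid NKT, 2751 and 3488 in stage 1 NKT, and 87.3 and 61.8 in CD4SP at its brightest probe set, where the NKT groups overlapped (Luxoid minus stage 1 NKT -0.38 ± 0.23, adjusted p = 0.607). At both dimmer probe sets Luxoid NKT lay below stage 1 NKT with no overlap. The first read 622, 918 and 806 in Luxoid NKT, 1263 and 1580 in stage 1 NKT, and 51.5 and 41.6 in CD4SP. The second read 396, 472 and 444 in Luxoid NKT, 728 and 745 in stage 1 NKT, and 51.7 and 46.2 in CD4SP. This checks the split of NKT from CD4SP, not the loss of the protein in Luxoid mice. Of 7 NKT genes tested with limma, 6 passed as higher and 1 as lower in stage 1 NKT than in CD4SP, and 5 and 1 in Luxoid NKT. The lower gene was Slamf1, at -2.12 in stage 1 NKT and -2.13 in Luxoid NKT. The T cell gene Cd3e read 4035 to 5837 in all arrays. Of 5 T cell genes tested, 3 passed as lower in stage 1 NKT and 2 in Luxoid NKT than in CD4SP, and 0 as higher. The erythroid gene Hba-a2 read 3162 to 4496 over all arrays, and its groups overlapped. The other listed erythroid genes on the array, Hba-a1 (27.4 to 50.8) and Alas2 (21.4 to 41.5), read under the filter in every array. Pools differed in sex within each group, since the Y-linked gene Kdm5d read 11.7 or less in array 1 of every group but 758 or more in all remaining arrays. Xist, a gene expressed in female cells, read 36.1 in Luxoid array 2, 29 in CD4SP array 2 and 3887.9 or more elsewhere. Stage 1 NKT array 2 and Luxoid array 3 thus held signals of both sexes. Summed intensities of other cell types' markers lay at 505 to 652 in Luxoid NKT, 570 to 615 in stage 1 NKT and 494 to 507 in CD4SP for B cells (7 genes), and at 718 to 775, 700 to 796 and 921 to 999 in the same groups for myeloid or dendritic cells (10 genes). For immature double-positive thymocytes (8 genes) they lay at 952 to 1237 in Luxoid NKT, 963 to 1038 in stage 1 NKT and 1609 to 1846 in CD4SP. Of these 8, Dntt (461 and 527) and Cd8b1 (223 and 268) read higher in CD4SP than in any NKT array, and 4 were under the filter throughout. Cd8a read 144, 184 and 152 in Luxoid NKT, 82.3 and 93.6 in stage 1 NKT, and 134.5 and 147.6 in CD4SP. Cd1d1 read 535 to 771 over all arrays. Of 4 B cell genes tested, Cd79b passed as higher and Cd79a as lower in both NKT groups against CD4SP. Arrays correlated at r = 0.984 to 0.992 within groups over all 45037 probe sets.

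Most NF-kappaB genes read lower in NKT cells than in CD4SP thymocytes. In stage 1 NKT, 8 of 9 genes were below CD4SP with no overlap between arrays, against 60.2% of all 10874 tested genes whose groups did not overlap in either direction. Of these 8, Rel and Tnfaip3 passed the test (limma, Benjamini-Hochberg adjusted p under 0.05 over all tested genes), where 14.9% of all genes passed, 10.8% as higher and 4.08% as lower. In Luxoid NKT, 8 of 9 genes again lay below CD4SP with no overlap (46% of all genes did not overlap), and Rel, Tnfaip3, Nfkbie and Nfkbia passed (16.8% of all genes passed, 11.3% as higher and 5.51% as lower). No member was called as higher in either comparison. The median difference of the 9 genes was -0.57 on the log2 scale for stage 1 NKT minus CD4SP, beside 0.06 for all genes, and -0.60 for Luxoid NKT minus CD4SP, beside 0.02 for all genes. Both comparisons rest on the same 2 CD4SP arrays. Between Luxoid NKT and stage 1 NKT, 0 of 9 genes passed limma's adjusted threshold, 0 had an unadjusted p under 0.05, and 1.55% of all genes passed, 0.901% as higher and 0.653% as lower. The lowest unadjusted limma p among the members there was that of Nfkbie, 0.050005, at the border of 0.05. In bulk RNA, a lower level in every cell and fewer cells with the transcript cannot be told apart.

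**Figure D1:**
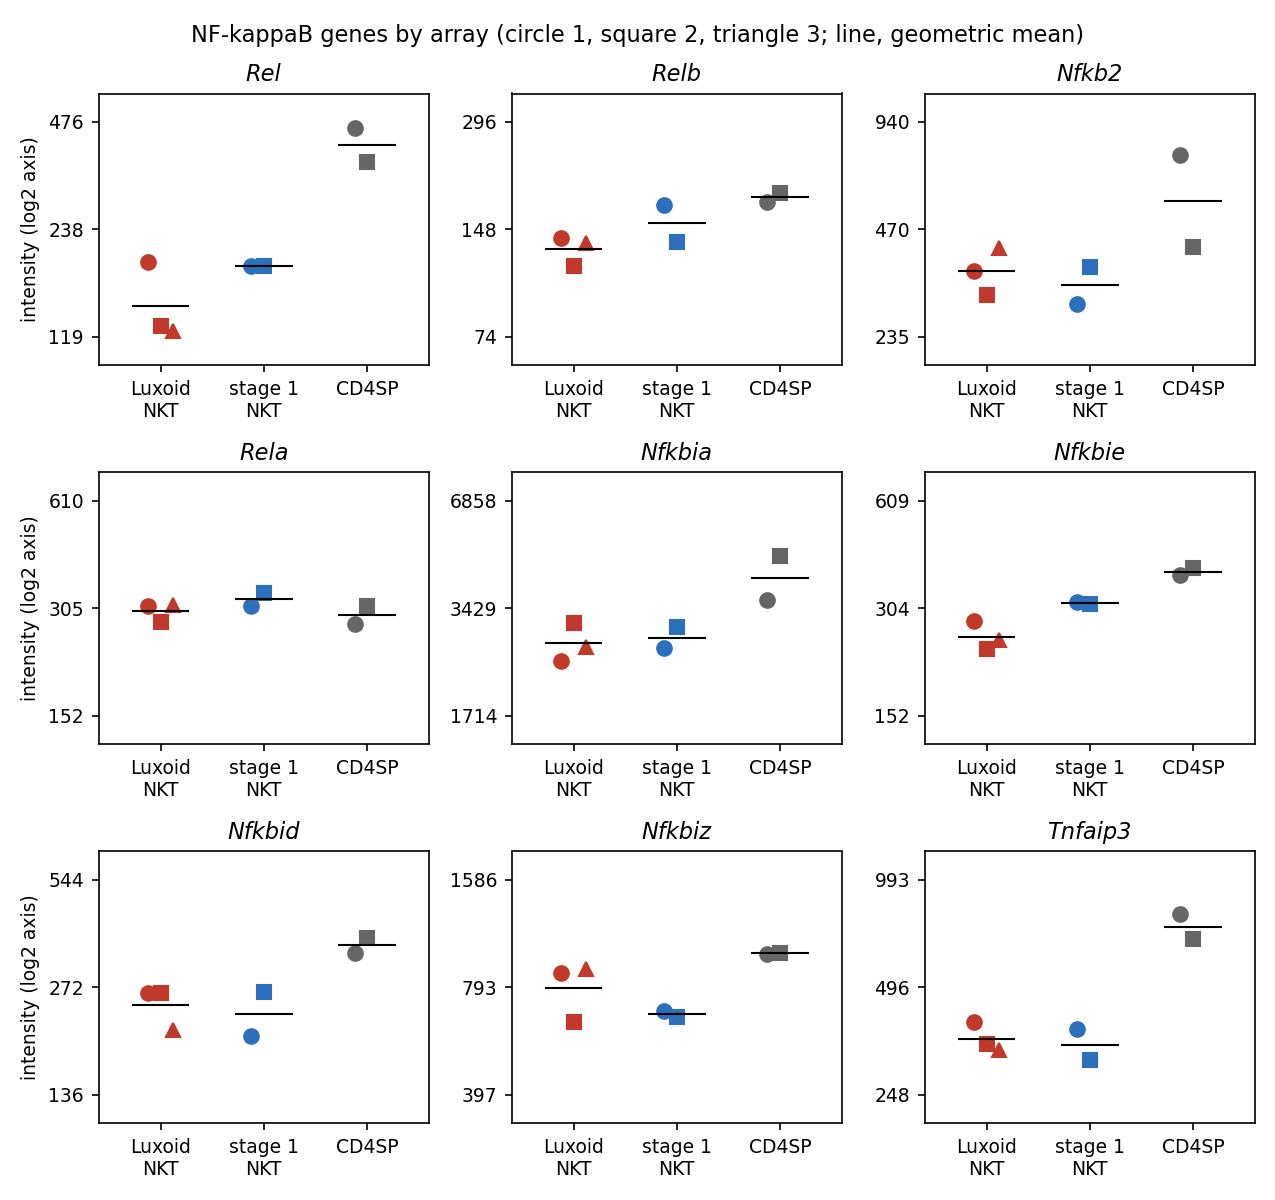
Intensity of the main probe set of each gene in each array (vertical axes are log2-spaced and differ between panels, each spanning the same fold range). Groups are Luxoid NKT, stage 1 NKT and CD4SP, symbols give the array number, and lines give geometric means. In every panel except Rela the CD4SP arrays lie above all 5 NKT arrays.

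Among the subunits, Rel showed the largest difference. Rel encodes c-Rel, a subunit that acts mostly in lymphocytes. Its probe set 1420710_at read 193, 127 and 124 in Luxoid NKT, 187 and 187 in stage 1 NKT, and 458 and 367 in CD4SP. Both CD4SP arrays thus lay above every NKT array. Stage 1 NKT were 2.19-fold lower than CD4SP (log2 difference -1.13 ± 0.23 SE, adjusted p = 0.0137), and Luxoid NKT 2.83-fold lower (-1.50 ± 0.21, adjusted p = 0.00187). The difference of stage 1 NKT lost its call without stage 1 NKT array 1 (adjusted p = 0.0886), stage 1 NKT array 2 (0.0795) or CD4SP array 1 (0.0987), with values of -1.29 to -0.97 when any 1 array was left out. Luxoid minus stage 1 NKT was -0.37 ± 0.21 (adjusted p = 0.579, 95% interval -0.86 to 0.12), with Luxoid array 1 at the level of the stage 1 NKT arrays and the other 2 Luxoid arrays below it.

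Rela, which encodes p65, the most widely expressed subunit, differed least among the members in the comparisons with CD4SP. Its probe set 1419536_a_at read 310, 279 and 312 in Luxoid NKT, 310 and 337 in stage 1 NKT, and 276 and 310 in CD4SP. The 3 groups overlapped. The difference was 0.14 (95% interval -0.20 to 0.48) for stage 1 NKT minus CD4SP, 0.04 (-0.27 to 0.35) for Luxoid NKT minus CD4SP and -0.11 (-0.42 to 0.20) for Luxoid minus stage 1 NKT. No interval reached beyond 0.48 on the log2 scale in either direction.

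The subunits of the NIK-driven route, Relb and Nfkb2, lay below CD4SP in both NKT groups without passing the test. Relb (1417856_at) read 140, 117 and 136 in Luxoid NKT, 173 and 137 in stage 1 NKT, and 176 and 187 in CD4SP. The highest stage 1 NKT array came close to the lower CD4SP array. Its differences from CD4SP were -0.48 ± 0.16 in Luxoid NKT (adjusted p = 0.0748) and -0.24 ± 0.17 in stage 1 NKT (adjusted p = 0.399). Nfkb2 (1429128_x_at) read 359, 308 and 417 in Luxoid NKT, 291 and 368 in stage 1 NKT, and 758 and 419 in CD4SP. The 2 CD4SP arrays of Nfkb2 differed from each other by more than the lower of them differed from the NKT arrays. Its differences were -0.65 ± 0.26 in Luxoid NKT (adjusted p = 0.129) and -0.78 ± 0.28 in stage 1 NKT (adjusted p = 0.103). Without CD4SP array 2, the lower of that pair, they were -1.08 and -1.21 and passed (0.0373 and 0.0360). Without CD4SP array 1 they were -0.22 and -0.35 and did not. The second Nfkb2 probe set read 134, 182 and 122 in Luxoid NKT, 139 and 146 in stage 1 NKT, and 200 and 217 in CD4SP, which sets all NKT arrays below CD4SP with a smaller spread. With the mean of the gene's probe sets the differences passed at -0.59 in Luxoid NKT (adjusted p = 0.0210) and -0.66 in stage 1 NKT (adjusted p = 0.0200).

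Of the classical IkB genes, Nfkbia (1420089_at) read 2443, 3129 and 2679 in Luxoid NKT, 2647 and 3039 in stage 1 NKT, and 3623 and 4814 in CD4SP. Every CD4SP array lay above every NKT array, and the 2 CD4SP arrays differed from each other by more than the lower of them did from the highest NKT array. Luxoid NKT were 1.53-fold lower than CD4SP (-0.61 ± 0.18, adjusted p = 0.0481), just inside the threshold. That call held in 9 of 19 alternatives. Luxoid array 2 was the only array whose removal kept it, and without each of the other arrays it was lost (adjusted p = 0.0558 to 0.318, differences of -0.82 to -0.41). Stage 1 NKT differed by -0.56 ± 0.19 (adjusted p = 0.0940), which passed in 3 of 19 alternatives. All 5 probe sets of Nfkbia pointed the same way, with differences of -0.77 to -0.59 in Luxoid NKT and -0.65 to -0.56 in stage 1 NKT, although they share the same RNA and are not replicates.

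Nfkbie (1458299_s_at) read 281, 235 and 248 in Luxoid NKT, 317 and 313 in stage 1 NKT, and 377 and 395 in CD4SP. It was the only member whose 3 groups were all apart, in the order Luxoid NKT, stage 1 NKT, CD4SP from low to high. Luxoid NKT were 1.52-fold lower than CD4SP (-0.60 ± 0.14, adjusted p = 0.0179), a call that was lost without CD4SP array 1 (0.0788) or array 2 (0.118). Stage 1 NKT minus CD4SP was -0.29 ± 0.15 (adjusted p = 0.233). Luxoid minus stage 1 NKT was -0.31 ± 0.14 (adjusted p = 0.431), and 26.7% of all genes had no overlap between these 2 groups. The second Nfkbie probe set did not separate the NKT groups, with 205, 220 and 201 in Luxoid NKT, 226 and 209 in stage 1 NKT, and 309 and 278 in CD4SP.

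The nuclear IkB genes lay below CD4SP in every NKT array at their main probe sets, but neither passed with the settings used throughout. In stage 1 NKT both were close to the threshold, and Nfkbid passed in 5 and Nfkbiz in 6 of 19 alternatives, among them the mean of probe sets (adjusted p = 0.0428 and 0.0194). Nfkbid has 1 probe set, so its own values were the same in that alternative and only those of other genes changed. Nfkbid (1436074_at) read 263, 263 and 207 in Luxoid NKT, 199 and 264 in stage 1 NKT, and 341 and 373 in CD4SP. Its differences from CD4SP were -0.56 ± 0.18 in Luxoid NKT (adjusted p = 0.0689) and -0.64 ± 0.20 in stage 1 NKT (adjusted p = 0.0624). The NKT groups overlapped. Nfkbiz (1417483_at) read 870, 634 and 892 in Luxoid NKT, 679 and 656 in stage 1 NKT, and 983 and 993 in CD4SP. In Luxoid NKT, arrays 1 and 3 lay between stage 1 NKT and CD4SP, and array 2 read below both stage 1 NKT arrays. Stage 1 NKT minus CD4SP was -0.57 ± 0.19 (adjusted p = 0.0827) and Luxoid NKT minus CD4SP -0.32 ± 0.17 (adjusted p = 0.255). Luxoid minus stage 1 NKT was 0.24 ± 0.17 (adjusted p = 0.672), the highest value among the members in that comparison. A dimmer probe set of Nfkbiz overlapped between Luxoid NKT (329, 486 and 306) and CD4SP (383 and 528).

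Tnfaip3 was the member with the smallest adjusted p in stage 1 NKT. Its product, A20, edits ubiquitin chains on signalling proteins upstream of the IkB kinases and restrains NF-kappaB. The main probe set (1433699_at) read 396, 344 and 332 in Luxoid NKT, 380 and 310 in stage 1 NKT, and 795 and 678 in CD4SP. The lower CD4SP array was well above the highest NKT array. Tnfaip3 was 2.06-fold lower than CD4SP in Luxoid NKT (-1.04 ± 0.16, adjusted p = 0.00273) and 2.14-fold lower in stage 1 NKT (-1.10 ± 0.17, adjusted p = 0.00423). Both calls held with any 1 array left out (highest adjusted p 0.0352 and 0.0423). Luxoid minus stage 1 NKT was 0.05 ± 0.16 (adjusted p = 0.944, 95% interval -0.31 to 0.42). The second probe set read under the filter in all 7 arrays, at 37.9 to 43.0 in the NKT arrays and 52.3 and 67.0 in CD4SP.

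**Figure D2:**
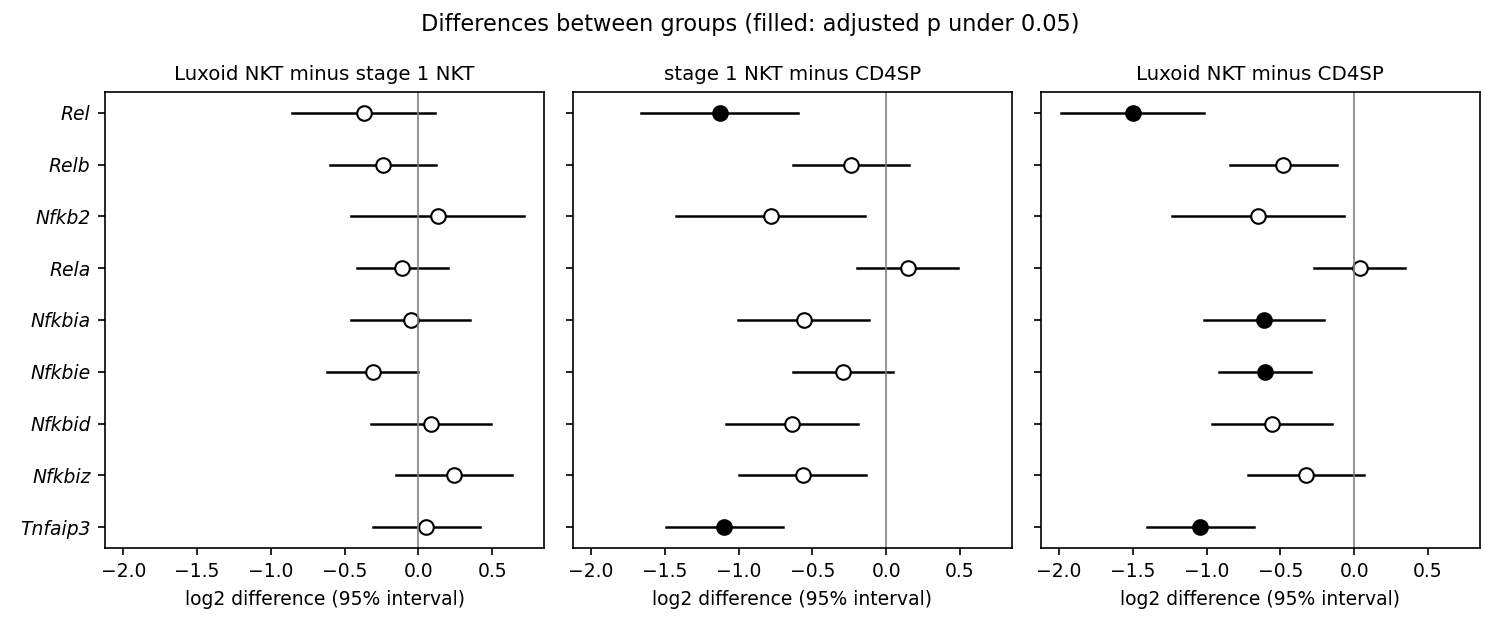
Log2 difference and 95% interval for each of the 9 genes in the 3 comparisons, with filled points for adjusted p under 0.05. All Luxoid minus stage 1 NKT intervals include 0, although that of Nfkbie ends at 8.1e-06. Rel and Tnfaip3 are filled in both comparisons with CD4SP.

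Over all 18 probe sets of these genes, 17 were lower in stage 1 NKT than in CD4SP and 17 were lower in Luxoid NKT than in CD4SP. The probe set of Rela was the exception in both. Between Luxoid and stage 1 NKT 10 probe sets were lower and 8 higher, from -0.37 to 0.30. The pattern was also read within arrays of 1 number, since the pools numbered 1 differed from the rest in sex. Among these arrays 8 of 9 genes were lower in Luxoid NKT than in CD4SP and 8 of 9 lower in stage 1 NKT than in CD4SP. Among the arrays numbered 2 these counts were 9 and 8. The stage 1 NKT array numbered 2 was not matched in sex to the others of that number. Xist read 3887.9 there, 36.1 in Luxoid NKT and 29 in CD4SP. Rel was at -1.24 and -1.53 for Luxoid NKT minus CD4SP in the arrays numbered 1 and 2, and at -1.29 and -0.97 for stage 1 NKT minus CD4SP. Tnfaip3 was at -1.06 and -1.13 for stage 1 NKT minus CD4SP in the arrays numbered 1 and 2, and was lower in Luxoid NKT in both as well. These are single arrays per group and carry no test.

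**Figure D3:**
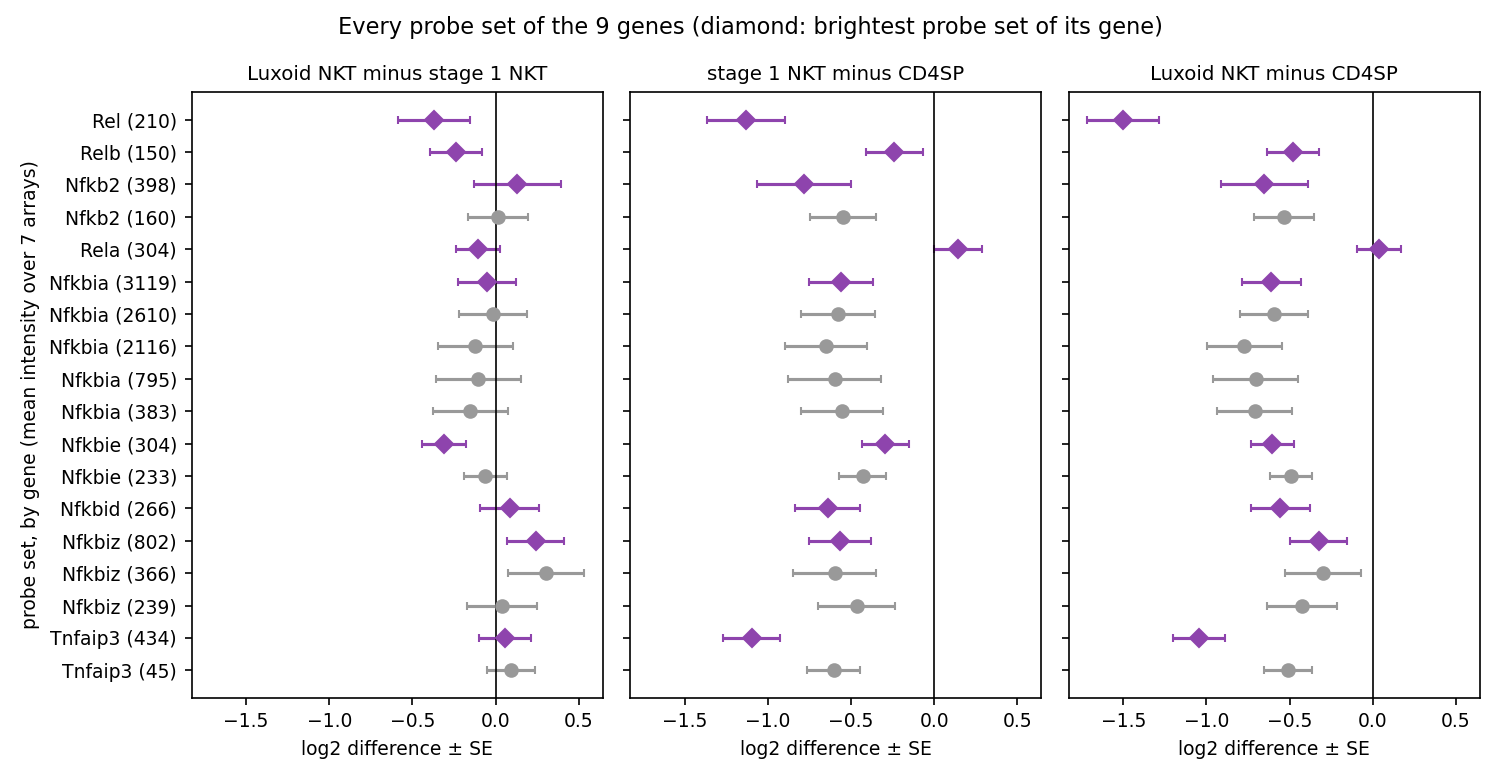
Log2 difference ± SE for every probe set of the 9 genes in the 3 comparisons, with diamonds for the brightest probe set of each gene and the mean intensity over the 7 arrays in brackets. In both comparisons with CD4SP the points of all genes other than Rela lie left of 0, and in Luxoid minus stage 1 NKT they lie on both sides.

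The rest of the pathway was read from lists of receptors, ligands, signalling proteins, further inhibitors and target genes. Of all tested genes, 11.3% passed as higher and 5.51% as lower in Luxoid NKT against CD4SP. In stage 1 NKT against CD4SP these shares were 10.8% and 4.08%, and between the NKT groups 0.901% and 0.653%. They apply beside the counts of every list below, and whether a list differs from them was not tested. Of 11 receptor genes tested, 1 rose and 3 fell in Luxoid NKT against CD4SP, and 2 rose and 3 fell in stage 1 NKT against CD4SP. Tnfrsf4, which encodes the costimulatory receptor OX40, read 102, 91.5 and 84.8 in Luxoid NKT, 95.3 and 85.3 in stage 1 NKT, and 598 and 535 in CD4SP. It was lower in both NKT groups (-2.61 ± 0.14, adjusted p = 1.35e-05 in Luxoid NKT, and -2.65 ± 0.16, adjusted p = 2.99e-05 in stage 1 NKT). Tnfrsf9, the receptor 4-1BB, was also lower in stage 1 NKT (-1.13 ± 0.18, adjusted p = 0.00451) and in Luxoid NKT (-0.58 ± 0.17, adjusted p = 0.0459, and up to 0.212 without any 1 array other than Luxoid array 1). With the mean of its probe sets neither difference of Tnfrsf9 passed, at -0.06 in Luxoid NKT (adjusted p = 0.822) and -0.47 in stage 1 NKT (adjusted p = 0.0884). Tnfrsf18, the receptor GITR, fell by 0.58 on the log2 scale in Luxoid NKT (adjusted p = 0.0259, and up to 0.162 without Luxoid array 2 or 3 or either CD4SP array) and by 0.72 in stage 1 NKT (adjusted p = 0.0179, and up to 0.108 without either stage 1 NKT or either CD4SP array). The receptor of interleukin 18, which signals to NF-kappaB through MyD88, went the other way. Il18r1 read 965, 1410 and 1056 in Luxoid NKT, 2373 and 2205 in stage 1 NKT, and 382 and 699 in CD4SP. Its rise over CD4SP was 1.13 ± 0.26 in Luxoid NKT (adjusted p = 0.0206, but 0.138 without CD4SP array 1) and 2.15 ± 0.29 in stage 1 NKT (adjusted p = 0.00184).

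A chain of the interleukin 18 receptor was the only receptor gene called between the NKT groups. Between Luxoid and stage 1 NKT 1 of 11 receptors fell and none rose, where 1.55% of all genes passed. Il18rap, the accessory chain, read 76.1, 57.6 and 46.3 in Luxoid NKT and 183 and 141 in stage 1 NKT. All Luxoid arrays lay under the filter, so the fall is at least 1.96-fold (fitted difference -1.45 ± 0.22, adjusted p = 0.0148, and up to 0.175 without either stage 1 NKT array). Stage 1 NKT were above CD4SP, at 86.9 and 90.3, by 0.86 ± 0.24 (adjusted p = 0.0447, and up to 0.260 without either stage 1 NKT or either CD4SP array). Il18r1 differed in the same comparison by -1.02 ± 0.26, which did not pass (adjusted p = 0.134).

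Of 8 ligand genes tested, 3 rose and 2 fell in Luxoid NKT against CD4SP, and 1 rose and 1 fell in stage 1 NKT against CD4SP. Tnfsf14, which encodes LIGHT, a ligand of the lymphotoxin beta receptor, read 417, 403 and 432 in Luxoid NKT, 394 and 403 in stage 1 NKT, and 96.3 and 88.4 in CD4SP. Its difference was 2.18 ± 0.13 in Luxoid NKT (adjusted p = 1.64e-05) and 2.11 ± 0.14 in stage 1 NKT (adjusted p = 4.78e-05), in both cases with any 1 array left out as well. The lymphotoxin genes were on the other side: Ltb was at -1.07 ± 0.24 in Luxoid NKT (adjusted p = 0.0189, and up to 0.117 without Luxoid array 3 or either CD4SP array) and Lta at -0.92 ± 0.23 in stage 1 NKT (adjusted p = 0.0330, and up to 0.213 without either stage 1 NKT or either CD4SP array). Lta was also lower in Luxoid NKT (-0.99 ± 0.21, adjusted p = 0.0146, and up to 0.0967 without either CD4SP array). Tnfsf8, the ligand of CD30, was the 1 ligand called between the NKT groups, where 1.55% of all genes passed. It read 638, 354 and 406 in Luxoid NKT, 163 and 126 in stage 1 NKT, and 167 and 146 in CD4SP. The Luxoid arrays were all above the others, by 1.65 ± 0.25 over stage 1 NKT (adjusted p = 0.0152, and up to 0.234 without either stage 1 NKT array) and by 1.53 ± 0.25 over CD4SP (adjusted p = 0.00392). Tnfsf11, which encodes RANKL, rose in Luxoid NKT against CD4SP (1.01 ± 0.21, adjusted p = 0.0142, and 0.123 without CD4SP array 1).

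Among 18 genes of adaptors and kinases, 1 fell in Luxoid NKT and 2 fell in stage 1 NKT against CD4SP, and none rose. Of all genes 16.8% and 14.9% passed in these comparisons in either direction. Traf1, an adaptor of TNF receptors whose gene is a known NF-kappaB target, read 214, 226 and 112 in Luxoid NKT, 382 and 476 in stage 1 NKT, and 1024 and 1184 in CD4SP. It was lower than CD4SP in Luxoid NKT (-2.65 ± 0.29, adjusted p = 0.000514) and in stage 1 NKT (-1.37 ± 0.32, adjusted p = 0.0229, and up to 0.154 without either stage 1 NKT or either CD4SP array). Luxoid minus stage 1 NKT was -1.28 ± 0.29 for Traf1 and did not pass (adjusted p = 0.0883). Map3k14, the gene of NIK, fell in stage 1 NKT by 0.64 on the log2 scale (adjusted p = 0.0315, and up to 0.189 without either stage 1 NKT or either CD4SP array). The list's median was 0.03 for Luxoid NKT and 0.01 for stage 1 NKT against CD4SP, close to that of all genes (0.02 and 0.06). Between the NKT groups 0 of 18 passed limma's adjusted threshold.

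Of 16 further inhibitor genes, 1 rose and 2 fell in Luxoid NKT against CD4SP, and 1 fell in stage 1 NKT. Bcl3, a nuclear IkB protein that partners p52, read 194, 254 and 116 in Luxoid NKT, 160 and 147 in stage 1 NKT, and 462 and 602 in CD4SP. All NKT arrays were below CD4SP, by -1.56 ± 0.29 in Luxoid NKT (adjusted p = 0.00790, and 0.0904 without CD4SP array 2) and -1.78 ± 0.32 in stage 1 NKT (adjusted p = 0.00777, and up to 0.0725 without either stage 1 NKT array or CD4SP array 2). Zc3h12a, the RNase regnase-1, fell in Luxoid NKT (-0.74 ± 0.20, adjusted p = 0.0384) and Otud7b, a deubiquitinase, rose (0.53 ± 0.13, adjusted p = 0.0233), but neither call held throughout. Zc3h12a lost it without any 1 array other than Luxoid array 2 (adjusted p up to 0.190), and Otud7b without Luxoid array 1 or 3 or either CD4SP array (up to 0.117). Between the NKT groups 0 of 16 passed limma's adjusted threshold.

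Target genes were split by their calls. Of 15 tested, 3 rose and 3 fell in Luxoid NKT against CD4SP, and 2 rose and 2 fell in stage 1 NKT. The medians of the 15 were -0.36 and -0.31, beside 0.02 and 0.06 for all genes. Of the 25 listed targets on the array, 9 were under the filter in every array. Birc3, which encodes the ubiquitin ligase cIAP2, read 514, 621 and 623 in Luxoid NKT, 598 and 584 in stage 1 NKT, and 1349 and 1143 in CD4SP. It fell by 1.09 on the log2 scale in Luxoid NKT (adjusted p = 0.00164) and by 1.07 in stage 1 NKT (adjusted p = 0.00372). Ccr7, a chemokine receptor of mature thymocytes, fell by 1.06 in Luxoid NKT (adjusted p = 0.00103) and by 1.14 in stage 1 NKT (adjusted p = 0.00141). Il2ra, a chain of the interleukin 2 receptor, read under the filter in all Luxoid NKT arrays and was at least 2.02-fold lower there than in CD4SP (adjusted p = 0.00107). Irf4, a transcription factor gene of receptor-stimulated T cells, rose by 1.01 ± 0.17 in Luxoid NKT (adjusted p = 0.00410) and by 0.79 ± 0.18 in stage 1 NKT (adjusted p = 0.0224, and up to 0.157 without either stage 1 NKT or either CD4SP array). Icam1, an adhesion molecule, read 541, 798 and 654 in Luxoid NKT, 529 and 462 in stage 1 NKT, and 382 and 367 in CD4SP. It rose in Luxoid NKT against CD4SP (0.81 ± 0.18, adjusted p = 0.0166, and up to 0.115 without either CD4SP array), and was at 0.40 ± 0.20 in stage 1 NKT (adjusted p = 0.218). Nfatc1, a calcium-driven factor, rose by 0.87 in Luxoid NKT (adjusted p = 0.00476, and up to 0.0458 when 1 array was left out) and by 0.68 in stage 1 NKT (adjusted p = 0.0251, and up to 0.135 without either stage 1 NKT or either CD4SP array). Between the NKT groups 0 of 15 targets passed limma's adjusted threshold.

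**Figure D4:**
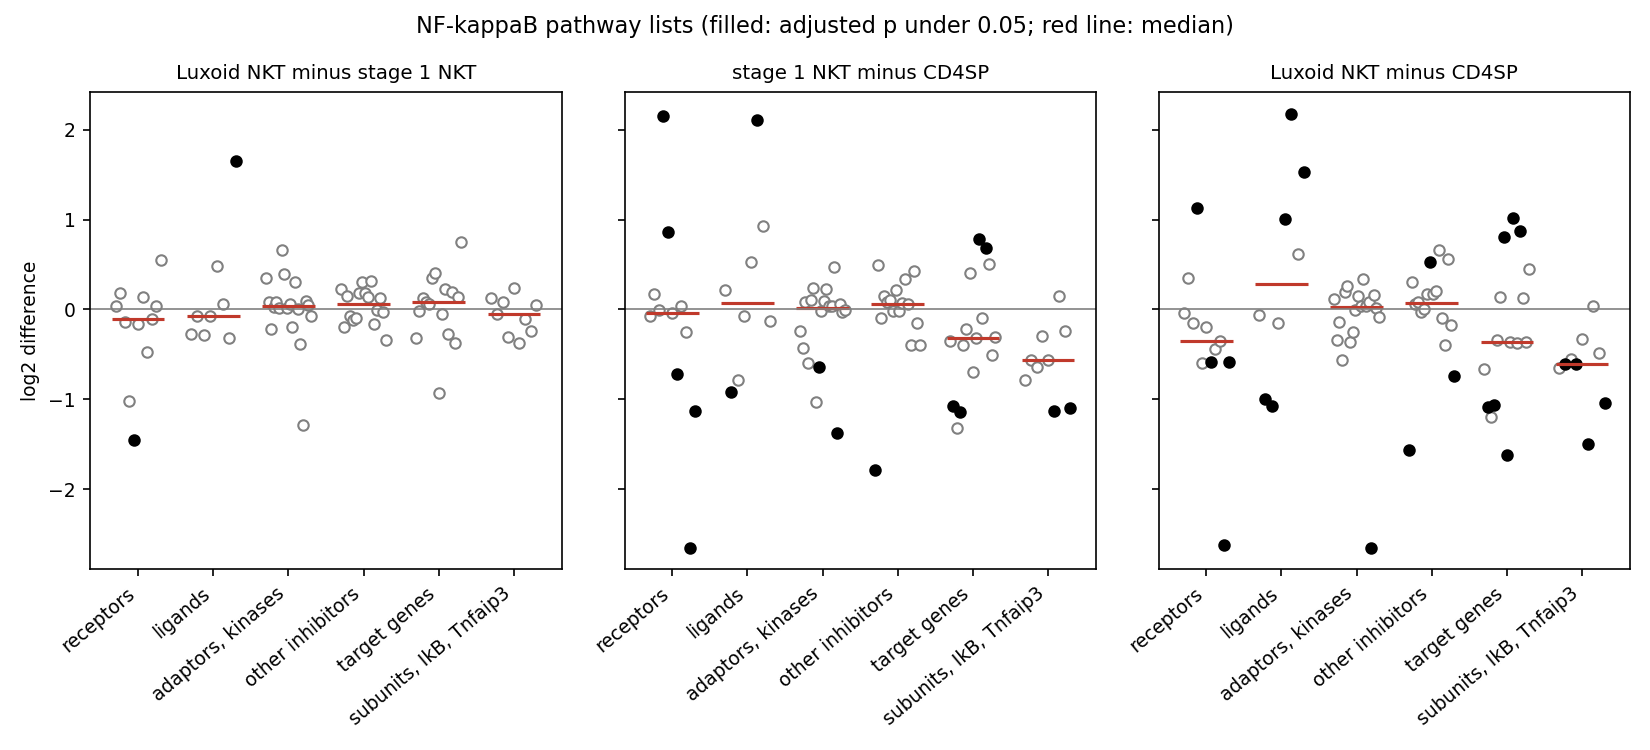
Log2 difference of each tested gene of the pathway lists in the 3 comparisons, with filled points for adjusted p under 0.05 and red lines for medians. Between Luxoid and stage 1 NKT 1 receptor (Il18rap) and 1 ligand (Tnfsf8) are filled, and the median of the subunits, IkB genes and Tnfaip3 lies at -0.57 for stage 1 NKT and -0.60 for Luxoid NKT minus CD4SP.

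Markers of regulatory T cells, which are CD4+ CD8- and can be part of a CD4SP sort, went in both directions. Foxp3 read 193, 148 and 174 in Luxoid NKT, 161 and 166 in stage 1 NKT, and 465 and 449 in CD4SP (-1.42 ± 0.15, adjusted p = 0.000397 in Luxoid NKT, and -1.48 ± 0.16, adjusted p = 0.000640 in stage 1 NKT). Ctla4 lay under the filter in all NKT arrays and at 464 and 326 in CD4SP, so it was at least 4.74-fold lower in both NKT groups. Of the 7 regulatory T genes tested, 5 were lower and 2 higher in Luxoid NKT, and 4 lower and 1 higher in stage 1 NKT, against CD4SP. Ikzf2 was higher in both, by 1.27 in Luxoid NKT (adjusted p = 0.0111) and 1.15 in stage 1 NKT (adjusted p = 0.0279). Izumo1r was called as higher in Luxoid NKT (1.19, adjusted p = 0.00651). Il2ra is in this list as well as among the targets. The summed intensity of the 8 listed genes on the array did not separate CD4SP from NKT cells, at 7518 to 8670 in Luxoid NKT, 5882 to 6184 in stage 1 NKT and 6100 to 6827 in CD4SP, and it includes Izumo1r, which alone read 3546 to 6890 in the NKT arrays and 2174 and 3244 in CD4SP. No marker of that list was listed at 0, but neither was any other value (lowest 3.08), so this does not tell whether a marker was present. Il10 of that list read 4.9 to 6.9, under the filter in every array. The part of regulatory T cells in the differences of Rel, Tnfaip3, Tnfrsf4, Traf1 or Birc3 was not tested. Immediate early and heat shock genes raised by cell isolation had summed intensities of 7691 to 8396 in Luxoid NKT, 6309 to 7183 in stage 1 NKT and 8840 to 8941 in CD4SP (12 genes). The sums hide spread within groups. Jun read 62.7, 561 and 479 in Luxoid NKT, 111 and 735 in stage 1 NKT, and 59 and 88.1 in CD4SP. Fos read 22.2 and 136 in stage 1 NKT, and 84.5 to 140 in the arrays of the other groups. Of 7 tested, Btg2 fell in Luxoid NKT (adjusted p = 0.0310, and up to 0.181 without Luxoid array 2 or 3 or either CD4SP array) and Egr1 fell in stage 1 NKT (adjusted p = 0.0471, and up to 0.227 without any 1 of the 7 arrays) against CD4SP. Their part in the results was not tested.

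The genes most like Rel and Tnfaip3 over the 7 arrays were named by the Pearson correlation of log2 values with each, which is a description dominated by the step between NKT and CD4SP. For Rel they were Npc2 (r = 0.989), Gm11767 (r = 0.988) and Pde4d (r = 0.987). Npc2, a lysosomal cholesterol-binding protein, read 3857, 3473 and 3382 in Luxoid NKT, 3937 and 3848 in stage 1 NKT, and 6153 and 5273 in CD4SP. Pde4d, a phosphodiesterase of cyclic AMP, read 510, 296 and 310 in Luxoid NKT, 451 and 387 in stage 1 NKT, and 1020 and 885 in CD4SP. It thus shared with Rel the higher reading of Luxoid array 1. For Tnfaip3 they were Dnajb4 (r = 0.998), 9330175E14Rik (r = 0.993) and Il16 (r = 0.993). Dnajb4, a co-chaperone of heat shock proteins, read 270, 210 and 188 in Luxoid NKT, 254 and 151 in stage 1 NKT, and 1105 and 727 in CD4SP.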

How the data were processed

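Expression was measured with 7 arrays, 1 per sample: Luxoid NKT (3), stage 1 NKT (2) and CD4SP (2), grouped by sample title. Per the labels' protocols, RNA of sorted cells was amplified to cDNA, which was biotin-labelled. The authors deposited linear intensities (3.08 to 20875), made with RMA in Affymetrix Expression Console per the submitters' processing notes, with versions not given in the sources used here. This method corrects background, normalizes arrays by quantiles and summarises probes. After it array medians were alike (79.6 to 83.7), and differences of dim probe sets can be understated. No detection calls were used, and the number of arrays limits the precision.

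Probe sets were named from GEO's platform annotation: 34945 of 45037 had 1 symbol, 932 several and 9160 were not listed. By gene ID 34741 matched the RefSeq table of GRCm38.p6, which changed 0 symbols. Log2 was taken, the probe set of highest mean was kept per gene, and 10874 of 18193 genes that read at least 82.0, the median over the whole table, in 2 arrays were tested. A mean per group was fitted with limma 3.58.1 in R 4.3.3 (lmFit, eBayes, 4 residual and 4.49 prior degrees of freedom), with Benjamini-Hochberg adjustment over all tested genes in each comparison and a threshold of 0.05. If a group was below 82.0 throughout, the fold is given as a lower bound against that level. Members and lists were chosen with earlier results of these data known. All 9 analysed members were named, with up to 4 called genes of each pathway list per comparison by size, the 3 genes most correlated with Rel and with Tnfaip3, and Zbtb16. Foxp3, Ctla4, Izumo1r, Ikzf2, Cd3e, Slamf1, Hba-a2, Kdm5d and Xist were added for the checks. Hba-a1, Alas2, Dntt, Cd8b1, Cd8a, Cd1d1, Cd79a, Cd79b, Il10, Jun and Fos were added to these after their values were seen. Il18r1 and Traf1 between the NKT groups, Lta, Nfatc1 and Icam1 in Luxoid NKT and Tnfrsf18 in stage 1 NKT were named after their values were seen. The fit was tested on simulated data. The labels call the samples biological replicates of pooled mice. The alternatives were a replicate block, no and a stricter filter (75th percentile), median centring, another quantile normalization, the mean of probe sets, all probe sets tested, a fit to 2 groups, a trend, array weights, a pseudocount of 16, leaving out each array, and a covariate of Y-linked expression chosen after seeing the data.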

Additional observations from a re-analysis of the deposited data

How the results depend on the processing

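Each of the 27 member differences was recomputed under up to 19 alternatives. Rel in Luxoid NKT and Tnfaip3 in both NKT groups kept their direction and their call against CD4SP in all 19, with adjusted p up to 0.0282 for Rel and up to 0.0352 and 0.0423 for Tnfaip3 in Luxoid and stage 1 NKT. Of 510 recomputed values 466 kept direction and side of the threshold, 15 lost and 21 gained a call and 8 turned sign, none of these 8 from a called value; Relb was not tested under the stricter filter. Luxoid against stage 1 NKT had 0 members called in every alternative. For stage 1 NKT against CD4SP the count of 2 became 5 with the mean of probe sets, 4 with another quantile normalization and 4 with array weights, and 1 to 3 when 1 array was left out. For Luxoid NKT against CD4SP the count of 4 became 6 with another quantile normalization (Nfkbid and Relb added, 1840 of all genes called) and 6 with the mean of probe sets (Nfkbid and Nfkb2 added, 1917 called), and 2 to 4 when 1 array was left out. Over all genes, 49 to 176 were called without 1 array between the NKT groups (169 with all arrays). In stage 1 NKT against CD4SP the range was 635 to 1848 (1621 with all arrays). In Luxoid NKT against CD4SP it was 839 to 1737 (1831 with all arrays), and 2876 probe sets were called there with every probe set tested. For stage 1 NKT against CD4SP, 1778 of all genes were called with the mean of probe sets. There were 1556 with another quantile normalization and 2003 with array weights. For Luxoid NKT against CD4SP the count of members fell from 4 to 3 in several alternatives. These were no intensity filter (1751 of all genes called), median centring (1926), every probe set tested (2876 probe sets) and a fit to 2 groups (1463). Nfkbid has 1 probe set, so its calls with the mean of probe sets came without a change in its own values. Rela in Luxoid NKT minus CD4SP turned to -0.044 with another quantile normalization. Without 1 array it ran from -0.047 to 0.12, and for Luxoid minus stage 1 NKT Nfkbia ran from -0.15 to 0.047, Tnfaip3 from -0.093 to 0.20, Nfkb2 from -0.0385 to 0.30 and Nfkbid from -0.12 to 0.29. The cause was not tested, other than that fewer arrays entered. Replicate numbers are shared by the groups but no label says that they pair samples. Deviations of same-numbered arrays correlated at r = 0.334 to 0.491, with no more than 2 pairs per comparison. For stage 1 NKT and CD4SP both pairs gave r = 0.431 by construction, since deviations of 2 arrays from their mean mirror each other. With the number as a block, 5 members and 2616 genes were called for stage 1 NKT against CD4SP. Nfkbia (adjusted p = 0.0228), Nfkbid (0.0232) and Nfkbiz (0.0433) joined Rel and Tnfaip3 there. With the same block 4 members and 2299 genes were called for Luxoid NKT against CD4SP, and 0 members and 170 genes for Luxoid against stage 1 NKT.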
